A study of Mus musculus with 23 samples.

Results

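Stem cell enriched (SCe) organoids were compared with standard wild type (WT) organoids in RNA-seq, to measure what the enrichment medium did to the mRNA of intestinal epithelium. The comparison used 7 of the 23 libraries of the series, chosen by their labels: 3 SCe libraries, each from its own organoid line, and 4 WT libraries, which are technical libraries 1 and 2 of each of 2 organoid lines. The technical libraries of a WT line were summed, so that 3 SCe lines stood against 2 WT lines. Both groups came from C57BL/6 mice of the genotype VillinCre.ERT2.RPL22.HA, in which a tamoxifen-inducible Cre recombinase under the Villin promoter of intestinal epithelial cells acts on an HA-tagged allele of the ribosomal protein RPL22. Both were cultures of small intestinal crypts in a basement membrane extract and ENR medium, which holds Noggin and the Wnt agonist R-spondin. The extraction text of the labels, shared by all libraries, names cycloheximide before lysis, but the methods name it for ribosome profiling and not for RNA, so its use in these libraries is uncertain. For mice of the genotype above, the methods name tamoxifen injections before samples were taken, without stating them for each line. WT organoids carry the label untreated. For SCe organoids the medium also held 10 µM CHIR 99021 and 1.5 mM valproic acid. Mice were female and male, from 8 to 12 weeks old, with no age or sex tied to a line, and nothing in the labels says whether WT line 1 and SCe line 1 came from the same mouse. The labels give no run or date, each WT line has 2 libraries and each SCe line 1, and the numbers of lines differ. Batch and treatment therefore cannot be told apart here. The methods name C57BL/6 without a substrain, so a difference in genetic background between lines cannot be told apart from treatment either. Nor is it said whether the lines came from separate animals, so that p-values measure only the spread between these lines.

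Intestinal stem cells at the crypt base are kept by Wnt signals, which stabilize β-catenin so that it can switch on genes together with transcription factors of the TCF family. CHIR 99021 inhibits glycogen synthase kinase 3, the kinase that marks β-catenin for destruction, and valproic acid inhibits histone deacetylases, enzymes that remove acetyl groups from histones. Notch signals between neighbouring cells hold progenitors back from the secretory fates (goblet, Paneth, enteroendocrine and tuft cells), and cells that escape them or leave the crypt differentiate into these or into absorptive enterocytes.

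Estimated counts of protein-coding transcripts were summed per gene. The WT lines held 54156969 and 50174117 counts, and SCe lines 1, 2 and 3 held 27439459, 67598878 and 59404042. Levels are given as counts per 1000000 after TMM scaling (CPM), in the order WT line 1, WT line 2, SCe line 1, SCe line 2, SCe line 3, and changes as log2 fold changes of SCe over WT with their standard error (SE). Each adjusted p comes from edgeR's quasi-likelihood test with Benjamini-Hochberg adjustment over all 14925 genes tested, on 3 SCe and 2 WT lines, and a gene is called at 0.05. In bulk RNA, fewer cells of a type and less RNA per cell cannot be told apart.

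SCe line 1 stood apart from the other lines. The first principal component held 72.4% of the variance and separated the groups, and the second held 21.9% and set SCe line 1, at 80.3, against SCe lines 2 and 3, at −41.1 and −40.9, with the WT lines at 5.88 and −4.24. The median absolute log2 difference over genes was 0.282 between SCe lines 1 and 2 and 0.262 between lines 1 and 3, but 0.101 between lines 2 and 3. The technical libraries of the WT lines differed by 0.0685 and 0.0707. Of all genes tested, 22.4% were called higher and 19.9% lower in SCe organoids, 42.3% in either direction. These are the backgrounds for the counts below that use all lines. With upper quartile scaling in place of TMM, 63.7% of the called genes were higher in SCe organoids, against 53.0% in the values given here. In 35.1% of genes all 3 SCe lines were above both WT lines, and in 33.9% all were below both. Without SCe line 1, 31.9% of 14855 genes were called higher and 32.2% lower. Without SCe line 2, 2385 of 14590 genes were called higher and 1984 lower, and without SCe line 3, 2249 and 1793 of 14557. These are the backgrounds for counts with an SCe line left out. Fits without a WT line hold 1 WT line and called the fewest genes. A fall in the calls of a list there is therefore not particular to that list. The gene lists held 904 tested genes, of which 381 were called. Of these calls, 254 were lost without WT line 1, 259 without WT line 2, 120 without SCe line 2, 140 without SCe line 3 and 0 without SCe line 1, and 101 were kept whichever line was left out. Calls of genes named below are among the 101, or were kept in the same way, unless a highest adjusted p over these 5 fits is given, which marks a call that was lost.

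Most genes of goblet cells, which secrete mucus, were lower in every SCe line. Of 20 tested, 0 were called higher and 14 lower, with a median log2 fold change of −2.62, against 0.0232 over all genes tested. Muc2, the main gel-forming mucin of the gut, had 79.3 and 93.3 CPM in the WT lines and 1.60, 2.05 and 4.22 CPM in the SCe lines (log2 fold change −5.01, SE 0.433, adjusted p 0.00202). Even the highest SCe line was far below the lower WT line. Agr2, a disulfide isomerase needed for mucin folding, had 129.8 and 177 CPM in WT and 12.3, 16.1 and 18 CPM in SCe organoids (−3.31, SE 0.216, adjusted p 0.00129). Clca1, a protease secreted with the mucus, had 11.7 and 15.0 CPM against 0.0333, 0.173 and 0.224 CPM (−6.39, SE 0.521, adjusted p 0.00184). Spdef, the transcription factor of goblet cell maturation, also fell, from 12.1 and 14.4 CPM to 1.00, 2.16 and 2.36 CPM (−2.83, SE 0.382, adjusted p 0.00545). Tff3, a trefoil peptide of goblet cells, had 224 and 263 CPM in WT and 32.6, 95.5 and 118 CPM in SCe organoids without passing the test (adjusted p 0.0663). The list held 11 lower calls without either WT line and 18 without SCe line 1.

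**Figure D1:**
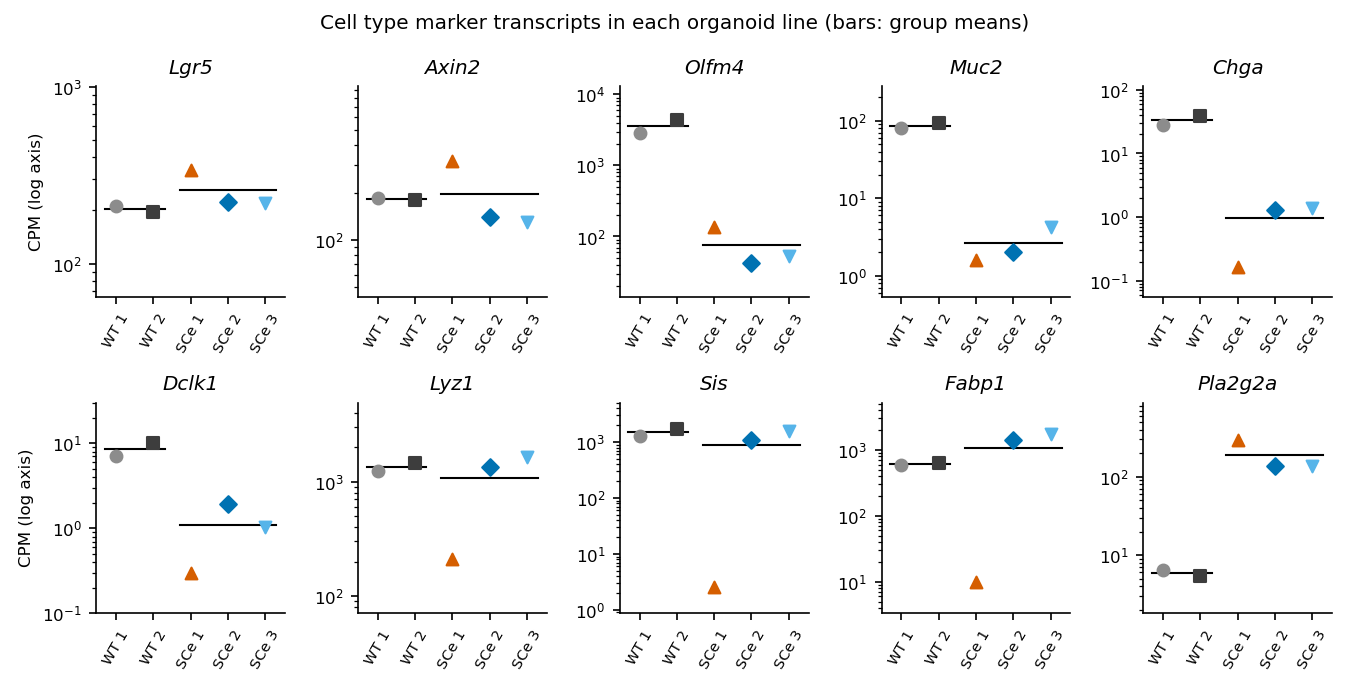
Level in CPM (log axis) of 10 marker genes of stem, goblet, enteroendocrine, tuft, Paneth and enterocyte cells in each of the 2 WT and 3 SCe organoid lines, 1 point a line. Muc2, Chga and Olfm4 are lower in all 3 SCe lines, while Sis and Fabp1 are low in SCe line 1 alone.

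Hormone-producing enteroendocrine cells and chemosensory tuft cells showed the same direction. Of 30 enteroendocrine genes tested, 1 was called higher and 18 lower, with a median of −2.59. Tph1, which makes serotonin in enterochromaffin cells, had 7.35 and 11.6 CPM in WT and 0.0333, 0.126 and 0.0860 CPM in SCe organoids (−6.69, SE 0.463, adjusted p 0.00151). Pax4, a transcription factor of enteroendocrine progenitors, had 1.3 and 1.33 CPM against 0.0333, 0.0315 and 0.0860 CPM (−4.59, SE 0.476, adjusted p 0.00301). Both genes were nearly absent from every SCe line. Chga, the granule protein chromogranin A, had 27.8 and 38.4 CPM against 0.167, 1.31 and 1.41 CPM (−5.03, adjusted p 0.00595, highest 0.0522 without WT line 2). Neurog3, which starts the endocrine programme, stayed closer, with 7.91 and 11.2 CPM in WT and 1.93, 3.42 and 5.82 CPM in SCe organoids, and did not pass the test (−1.35, adjusted p 0.0743). The exception was Pcsk1, a protease that processes prohormones, with 8.69 and 12.8 CPM against 17.1, 35.8 and 29.0 CPM (1.35, adjusted p 0.0375, highest 0.200). The count of 18 lower calls became 5 without WT line 1, 3 without WT line 2, 9 without SCe line 2 and 24 without SCe line 1.

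Of 20 tuft cell genes tested, 3 were called higher and 9 lower, with a median of −1.99. Dclk1, the kinase by which tuft cells are recognised, had 7 and 10.1 CPM in WT and 0.300, 1.94 and 1.03 CPM in SCe organoids (−2.93, adjusted p 0.0254, highest 0.129). Trpm5, the cation channel of taste signalling, had 4.76 and 7.06 CPM against 0.900, 2.30 and 2.22 CPM (−1.69, adjusted p 0.0356, highest 0.186). The groups did not overlap for either gene. The 3 that were called higher included Pou2f3, the master transcription factor of tuft cells, with 3.65 and 3.94 CPM against 5.46, 6.57 and 5.42 CPM (0.62, adjusted p 0.0436, highest 0.228), and Plcg2, a phospholipase that immune and tuft cells share, with 5.54 and 9.29 CPM against 15.7, 33.2 and 30.0 CPM (1.83, adjusted p 0.0228, highest 0.133). Tuft calls fell when any line but SCe line 1 was left out, as calls over all genes did. Of the tuft genes 4 were lower without SCe line 2 and 1 without SCe line 3. Without SCe line 1, 16 were lower and 4 higher.

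Paneth cells, which sit among the stem cells and secrete antimicrobial peptides, gave a picture that differed between the SCe lines. Of 23 Paneth cell genes tested, 1 was called higher and 5 lower, 26.1% beside the 42.3% of all genes, with a median of −1.96. Of the 23, 19, 14 and 13 were under 0.5 times the WT mean in SCe lines 1, 2 and 3. Over all 14925 genes tested these counts were 1721, 1372 and 1330. Lyz1, Paneth cell lysozyme, had 1235 and 1460.2 CPM in WT, 211 CPM in SCe line 1 and 1351 and 1642 CPM in lines 2 and 3 (−0.34, SE 0.811, adjusted p 0.762). Only line 1 was low. Defa24, an α-defensin, had 1226 and 1516 CPM in WT and 58.3, 445 and 555 CPM in SCe organoids, below WT in every line without passing the test (−1.96, adjusted p 0.130). Mptx1, a pentraxin of Paneth cells, had 3.39 and 2.82 CPM in WT and 0, 0.0630 and 0 CPM in the SCe lines (−6.80, SE 0.899, adjusted p 0.00518). The single gene called higher was Pla2g2a, a secreted phospholipase that kills bacteria, with 6.38 and 5.41 CPM in WT and 296, 137 and 137 CPM in SCe organoids (5.01, SE 0.5, adjusted p 0.00278). All 3 SCe lines were far above both WT lines, and a difference in genetic background between the lines was not tested. The lower calls numbered 1 without WT line 1, 1 without WT line 2, 2 without SCe line 2, 3 without SCe line 3 and 17 without SCe line 1. α-Defensin genes have near-identical copies between which the counting could split reads.

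Enterocyte genes were low in SCe line 1 and closer to WT in lines 2 and 3, though many were still low there. Of 37 tested, 30 were under 0.5 times the WT mean in SCe line 1, but 14 in line 2 and 14 in line 3. Over all 14925 genes tested the counts were 1721, 1372 and 1330, so that lines 2 and 3 also exceeded the background. SCe line 1 was the lowest of the 5 lines for 34 enterocyte genes, and for 3816 of all genes. Sis, the brush border enzyme sucrase-isomaltase, had 1309 and 1701 CPM in WT, 2.60 CPM in SCe line 1 and 1089 and 1556 CPM in lines 2 and 3 (−0.77, SE 1.82, adjusted p 0.757). Fabp1, a fatty acid carrier, had 593 and 643 CPM in WT, 9.96 CPM in SCe line 1 and 1411 and 1746 CPM in lines 2 and 3 (0.77, SE 1.66, adjusted p 0.732). Fabp1 was called higher without SCe line 1 (1.35, adjusted p 0.000595). Apoa4, an apolipoprotein of chylomicrons, was lower in every SCe line, with 821 and 858 CPM against 0.466, 125 and 201 CPM, but the spread was large (−2.95, SE 1.71, adjusted p 0.219). Alpi, intestinal alkaline phosphatase, had 1472 and 1090.2 CPM against 83.0, 343 and 249 CPM (−2.51, SE 0.588, adjusted p 0.0243, highest 0.117). Of the 37 genes, 1 was called higher and 7 lower, 21.6% beside the 42.3% of all genes, with a median of −0.74. The 1 higher gene was Mep1a, the α subunit of the brush border protease meprin A, with 20.9 and 23.8 CPM against 57.0, 77.0 and 72.3 CPM (1.62, SE 0.161, adjusted p 0.00276). The 7 lower calls became 1 without WT line 1, 0 without WT line 2, 4 without SCe line 2, 3 without SCe line 3 and 17 without SCe line 1, where 8 were higher. Vil1, villin of the epithelial microvilli, had 599 and 587 CPM in WT and 499, 640.3 and 591 CPM in SCe organoids (adjusted p 0.812), so that this pan-epithelial gene was present in all 5 lines.

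**Figure D2:**
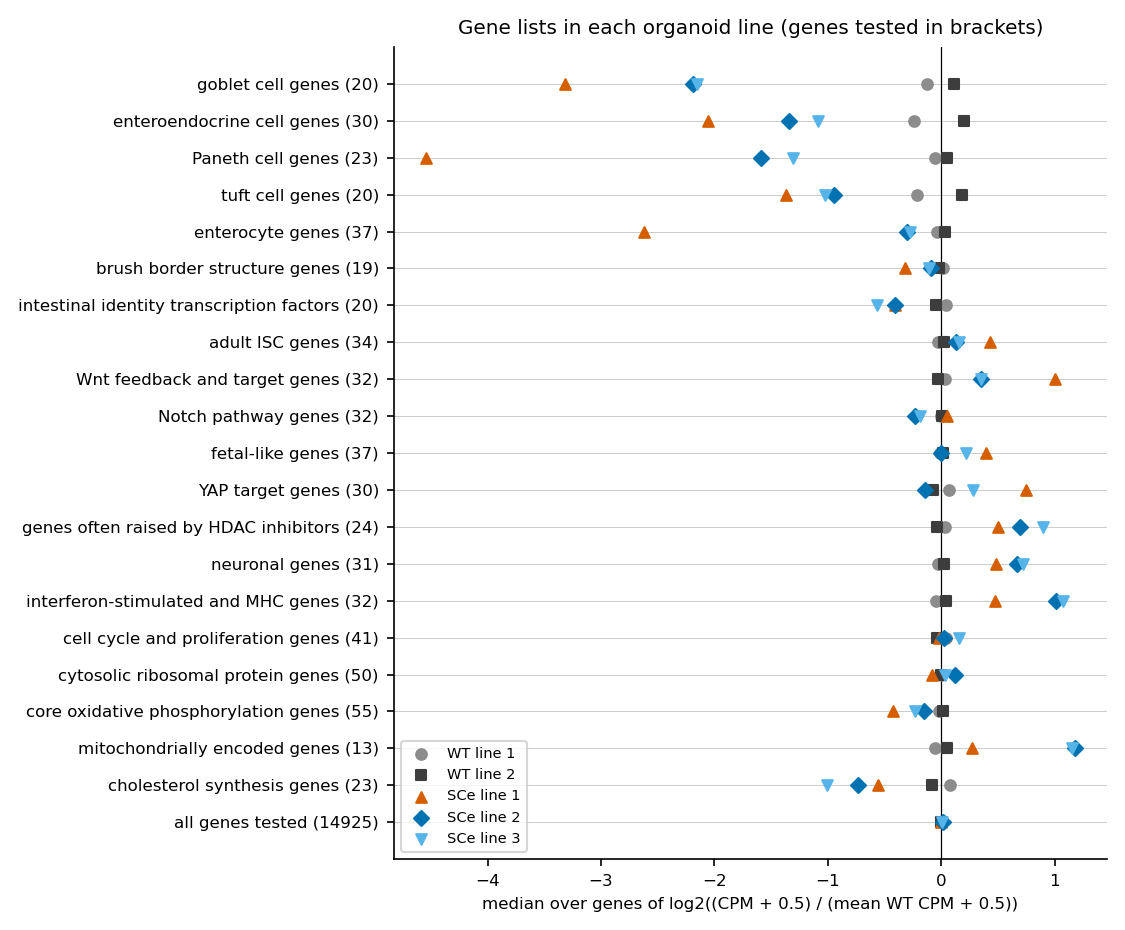
Median log2 ratio of CPM to the WT mean over the tested genes of each list, for each of the 2 WT and 3 SCe organoid lines. Goblet, enteroendocrine and tuft genes lie below 0 in all SCe lines, whereas the enterocyte median is −2.62 in SCe line 1 and −0.30 and −0.27 in lines 2 and 3.

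Several transcription factors that give the intestine its identity were lower as well. Of 20 tested, 1 was called higher and 7 lower, 40% beside the 42.3% of all genes, with a median of −0.47. Hnf4a, which drives enterocyte genes, had 1008 and 993 CPM in WT and 448, 503 and 430.5 CPM in SCe organoids (−1.12, SE 0.0954, adjusted p 0.00199). Cdx1, a caudal homeobox factor of the gut, had 104 and 117 CPM against 46.7, 46.5 and 44.0 CPM (−1.27, SE 0.0774, adjusted p 0.00127). Onecut2, a factor of the proximal small intestine, had 423 and 453 CPM against 144, 180.2 and 158 CPM (−1.45, SE 0.113, adjusted p 0.00171). For these genes SCe line 1 did not stand apart from lines 2 and 3, and the groups did not overlap. Cdx2, the related caudal factor, fell less, from 137 and 122 CPM to 84.0, 99.0 and 87.0 CPM (−0.52, adjusted p 0.0142, highest 0.0958). Lower calls numbered 3 without WT line 1, 3 without WT line 2, 4 without SCe line 3 and 14 without SCe line 1. Of 9 colon markers tested 4 were called higher and 0 lower, among them Muc4, a membrane mucin, with 82.6 and 71.6 CPM against 223, 269 and 231 CPM (1.64, SE 0.124, adjusted p 0.00167), while Slc26a3, an anion exchanger, had 113 and 138 CPM against 14.7, 60.1 and 56.4 CPM (−1.52, adjusted p 0.0946). Of the 4 higher colon calls, 1 was left without either WT line.

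The label of the SCe cultures was checked against genes of adult intestinal stem cells (ISCs). Of 34 tested, 9 were called higher and 5 lower, 41.2% beside the 42.3% of all genes, with a median of 0.35. Lgr5, the R-spondin receptor that defines crypt base stem cells, had 212 and 194 CPM in WT and 336, 223 and 219 CPM in SCe organoids (0.35, SE 0.217, adjusted p 0.244). All SCe lines were above both WT lines, but the test was not passed. The change of Lgr5 was 0.12 without SCe line 1 (adjusted p 0.132). Mex3a, an RNA-binding protein of slowly cycling stem cells, had 19.4 and 20.1 CPM against 32.1, 13.0 and 14.3 CPM (−0.00, SE 0.430, adjusted p 0.998), with line 1 above and lines 2 and 3 below WT. Smoc2, a matrix protein of stem cells, had 267 and 294 CPM against 806, 436 and 418 CPM (0.98, SE 0.332, adjusted p 0.0676). Prom1, the membrane protein CD133, had 244 and 270.3 CPM against 404, 403 and 391 CPM (0.64, SE 0.0789, adjusted p 0.00443, highest 0.0512 without WT line 1). Tnfrsf19, the receptor Troy, had 27.7 and 21.3 CPM against 182, 56.4 and 71.3 CPM (2.07, SE 0.589, adjusted p 0.0418, highest 0.207).

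Other genes of the ISC list went down by a wide margin. Olfm4, a secreted glycoprotein of crypt base cells, had 2821 and 4371 CPM in WT and 134, 42.4 and 52.9 CPM in SCe organoids (−5.55, SE 0.622, adjusted p 0.00351). This was a 47.0-fold drop between the group means, with no overlap. Ascl2, a transcription factor of stem cell fate and a Wnt target, had 22.3 and 16.9 CPM against 7.63, 4.04 and 5.14 CPM (−1.81, SE 0.302, adjusted p 0.00930, highest 0.0700 without WT line 1). Clca3b, a relative of Clca1, had 621 and 1062 CPM against 229, 227 and 230.0 CPM (−1.88, SE 0.228, adjusted p 0.00424). The ISC genes called higher numbered 2 without WT line 1, 3 without WT line 2, 6 without SCe line 2, 5 without SCe line 3 and 13 without SCe line 1, where 13 were lower. Rptor, which encodes the mTORC1 subunit Raptor and is intact in both groups by genotype, had 50.7 and 47.2 CPM against 60.6, 54.2 and 53.7 CPM (0.20, SE 0.0863, adjusted p 0.125).

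Wnt feedback and target genes rose more than they fell. Of 32 tested, 11 were called higher and 1 lower, 37.5% beside the 42.3% of all genes. The median was 0.82, or 0.405 without SCe line 1. Lef1, a TCF family factor that is itself a Wnt target, was nearly absent from WT, with 0.0744 and 0.159 CPM, and had 9.96, 7.49 and 7.86 CPM in SCe organoids (6.15, SE 0.399, adjusted p 0.00128). Tcf7, another member of that family, had 13.5 and 12.7 CPM against 31.0, 31.0 and 31.2 CPM (1.24, SE 0.0771, adjusted p 0.00127). Secreted or membrane-bound Wnt inhibitors that the pathway induces were among the genes that rose. Notum, which removes the lipid from Wnt ligands, had 0.205 and 0.199 CPM against 2.07, 1.92 and 2.01 CPM (3.29, SE 0.273, adjusted p 0.00192). Apcdd1, which binds Wnt at the membrane, had 1.64 and 0.955 CPM against 11.6, 8.31 and 12.4 CPM (3.05, SE 0.346, adjusted p 0.00362). Wif1, a secreted Wnt-binding protein, had 0.0930 and 0.0398 CPM against 0.900, 1.07 and 1.39 CPM (4.02, SE 0.504, adjusted p 0.00454). In these genes the SCe lines lay close together and line 1 did not stand apart. Cd44, a hyaluronan receptor of crypt cells, had 125 and 141 CPM against 277, 332 and 299 CPM (1.18, SE 0.113, adjusted p 0.00250). Myc, a driver of growth, had 114 and 93.4 CPM against 201, 186 and 169 CPM (0.84, SE 0.124, adjusted p 0.00676, highest 0.0553 without WT line 2).

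Several classical Wnt targets had their highest level by far in SCe line 1. Axin2, a feedback inhibitor in the β-catenin destruction complex, had 185 and 178 CPM in WT, 317 CPM in SCe line 1 and 140.0 and 131 CPM in lines 2 and 3 (0.11, SE 0.427, adjusted p 0.859). Axin2 was called lower without SCe line 1 (−0.43, adjusted p 0.00156). Rnf43, a ubiquitin ligase that removes Wnt receptors, followed it, with 110.5 and 110.0 CPM against 292, 103 and 97.7 CPM (0.57, adjusted p 0.433). Nkd1, which restrains Dishevelled, had 4.58 and 4.99 CPM against 81.2, 15.8 and 16.7 CPM (2.98, SE 0.923, adjusted p 0.0532). Prox1, a homeobox factor, had 7.01 and 4.67 CPM against 284, 17.8 and 17.8 CPM (4.18, SE 1.65, adjusted p 0.0979). For both genes all SCe lines were above WT, and both were called higher without SCe line 1 (adjusted p 0.000224 for Nkd1 and 0.00143 for Prox1). In the whole list, higher calls numbered 7 without WT line 1, 6 without WT line 2 and 16 without SCe line 1, where 7 were lower. Of the 32 genes, 16, 12 and 12 were over 2 times the WT mean in SCe lines 1, 2 and 3. Over all 14925 genes tested these counts were 2493, 2688 and 2662.

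**Figure D3:**
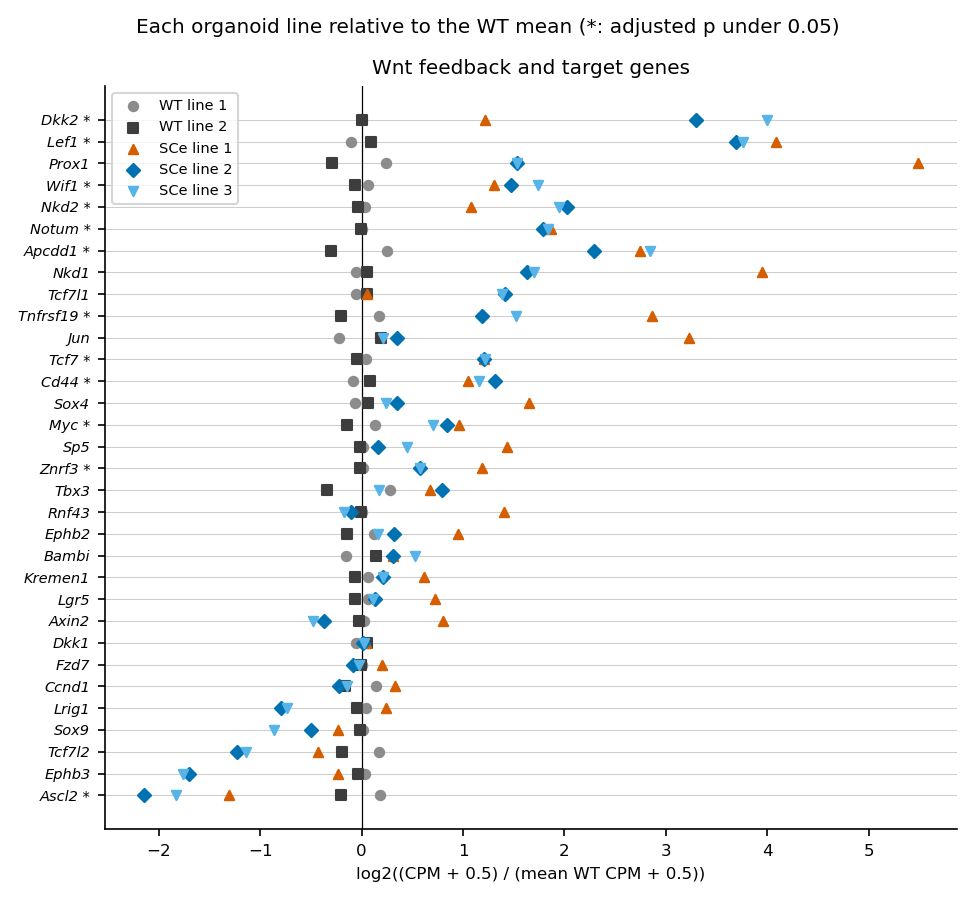
Level of Wnt feedback and target genes in each organoid line, as the log2 ratio of CPM to the WT mean, 1 row a gene. Lef1, Notum, Apcdd1 and Wif1 are raised to a like degree in all 3 SCe lines, while Axin2, Rnf43 and Prox1 are highest in SCe line 1.

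The letters CTTTGAT or CTTTGAA, a common form of the site that TCF factors bind, were searched on both strands of the RefSeq promoters of GRCm38.p6, from 250 bases before to 50 after each start, 300 bases in all. They occurred in 2842 of 32851 promoters (8.65%), and in at least 1 promoter of 9.88% of genes. Of the Wnt feedback and target genes tested, 22 were in the promoter table and 3 held a match, 13.6%, and of the 8 that were called 1 held one. The stretches of 30 bases around a match are shown for Sp5, a zinc finger factor and textbook Wnt target, at chr2:70474808-70474837 on the plus strand, and for Tnfrsf19 at chr14:61038171-61038200 on the minus strand, where the letters are on the opposite strand. Capitals mark the match, which begins 104 bases before the start in Sp5 and 202 in Tnfrsf19.
Sp5: ggcaaggccccCTTTGATcaggaaaatcca
Tnfrsf19: ctgaatgggggATCAAAGtgacaaactaga
Of this pair Tnfrsf19 was called higher, with the values above, and Sp5 had 6.25 and 6.10 CPM in WT and 17.5, 6.97 and 8.64 CPM in SCe organoids (0.83, SE 0.435, adjusted p 0.181). A match is a description of the letters in these windows and not a binding site that was measured.

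Among 35 core components of the Wnt pathway, 9 were called higher and 6 lower, 42.9% beside the 42.3% of all genes, with a median of −0.10. Wls, which carries Wnt ligands to the cell surface, had 45.9 and 55.2 CPM in WT and 120.2, 107 and 106 CPM in SCe organoids (1.13, SE 0.115, adjusted p 0.00283). The ligand Wnt6 had 0.0930 and 0.0597 CPM against 13.5, 2.84 and 5.25 CPM (6.5, SE 1.02, adjusted p 0.00780, highest 0.0702). Ctnnb1, which encodes β-catenin, had 1145 and 1243 CPM against 1075, 1064 and 995 CPM (−0.19, adjusted p 0.136), and Gsk3b, one form of the kinase that CHIR 99021 inhibits, had 138 and 133 CPM against 169, 156 and 151 CPM (0.22, adjusted p 0.0646). Neither passed the test. Gsk3a, the other form of that kinase, fell from 89.7 and 86.4 CPM to 65.6, 65.8 and 62.7 CPM (−0.44, SE 0.0606, adjusted p 0.00559, highest 0.0566 without WT line 1). Tcf7l2, the main TCF factor of the gut, had 55.4 and 42.8 CPM against 36.4, 20.7 and 22.0 CPM (−0.90, adjusted p 0.0555). Without SCe line 1, 11 were higher and 15 lower, and the lower calls numbered 0 without WT line 1, 1 without WT line 2, 3 without SCe line 2 and 1 without SCe line 3.

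Of 32 Notch pathway genes 6 were called higher and 6 lower, 37.5% beside the 42.3% of all genes, with a median of −0.10. Dll1, a Notch ligand of secretory progenitors, had 39.9 and 44.8 CPM in WT and 15.4, 12.9 and 13.1 CPM in SCe organoids (−1.62, SE 0.116, adjusted p 0.00159). Nrarp, a feedback inhibitor and direct Notch target, had 30.4 and 31.5 CPM against 8.10, 7.83 and 7.28 CPM (−2.0, SE 0.0936, adjusted p 0.00114). Maml1, a coactivator of the Notch complex, fell too (−0.84, SE 0.0721, adjusted p 0.00202). The receptor Notch3 rose from 3.07 and 3.10 CPM to 28.4, 29.9 and 25.8 CPM (3.18, SE 0.117, adjusted p 0.000941), and Dtx3, a ubiquitin ligase of the Deltex family, from 1.56 and 1.85 CPM to 24.6, 24.8 and 25.0 CPM (3.86, SE 0.130, adjusted p 0.000913). These values were tight within each group. Hes1, the Notch target that represses secretory fate, had 61.8 and 66.5 CPM against 74.3, 50.5 and 56.8 CPM (−0.08, adjusted p 0.724), and Atoh1, the factor that starts it, had 8.86 and 10.8 CPM against 2.17, 5.93 and 6.09 CPM (−1.04, adjusted p 0.128). Without SCe line 1 the Notch list had 8 higher and 16 lower calls. It had 5 higher and 6 lower without SCe line 2, and 5 higher and 5 lower without SCe line 3. Fewer calls were left without either WT line, and the loss was mostly among the higher ones.

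Eph receptors and ephrins position cells along the crypt, and of 17 tested 5 were called higher and 5 lower. Efnb1, an ephrin of differentiated cells that repels EphB-bearing crypt cells, had 71.3 and 68.2 CPM in WT and 24.4, 21.8 and 22.8 CPM in SCe organoids (−1.60, SE 0.0768, adjusted p 0.00114). Efna1 fell from 84.7 and 67.5 CPM to 5.36, 12.1 and 9.17 CPM (−3.09, SE 0.344, adjusted p 0.00346), while Efna3 rose from 5.92 and 5.91 CPM to 38.3, 31.6 and 33.4 CPM (2.54, SE 0.120, adjusted p 0.00114). In each of these ephrins the 2 groups were far apart. The Eph and ephrin list had 1 higher and 4 lower without WT line 1, 1 and 3 without WT line 2, 3 and 4 without SCe line 2 or SCe line 3, and 6 and 8 without SCe line 1. Of 12 EGF family ligands and receptors tested 2 were called higher and 3 lower, 41.7% beside the 42.3% of all genes, and 7 were lower without SCe line 1. The EGF receptor relatives Erbb2 and Erbb3 both fell, Erbb2 from 169 and 149.8 CPM to 59.8, 42.1 and 41.7 CPM (−1.74, SE 0.185, adjusted p 0.00318) and Erbb3 from 285 and 278 CPM to 81.5, 113 and 96.5 CPM (−1.54, SE 0.145, adjusted p 0.00243). The ligand Egf rose from 1.04 and 1.21 CPM to 4.16, 4.15 and 4.40 CPM (1.91, SE 0.207, adjusted p 0.00327). Of 22 BMP pathway genes tested 4 were called higher and 8 lower, and the ligand Bmp3 had 36.6 and 57.3 CPM against 5.56, 5.90 and 6.92 CPM (−2.93, SE 0.222, adjusted p 0.00167). The BMP list had 0 higher and 2 lower without either WT line, 2 and 3 without SCe line 2, and 2 and 2 without SCe line 3.

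Valproic acid acts on histone deacetylases, and their genes were measured as a group with their partners. Of 34 tested, 4 were called higher and 8 lower, 35.3% beside the 42.3% of all genes, with a median of −0.20. Hdac1 rose from 98.8 and 100.4 CPM to 174, 176 and 171 CPM (0.80, SE 0.0577, adjusted p 0.00159), whereas Hdac2, its close relative, had 104 and 109.6 CPM against 129, 117 and 118 CPM (0.19, adjusted p 0.103). Hdac6, a cytoplasmic tubulin deacetylase, rose by 0.71 (SE 0.0714, adjusted p 0.00281). Hdac7, a class IIa enzyme, fell from 19.4 and 17.1 CPM to 7.06, 5.56 and 7.47 CPM (−1.45, SE 0.168, adjusted p 0.00383), and Kat2b, an acetyltransferase, from 30.6 and 32.3 CPM to 15.4, 14.6 and 14.5 CPM (−1.08, SE 0.0783, adjusted p 0.00159). For this list 2 higher and 3 lower calls were left without either WT line, 4 and 5 without SCe line 2 and 4 and 4 without SCe line 3, and 18 were lower without SCe line 1.

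Of 24 genes that inhibitors of these enzymes often raise, 10 were called higher and 2 lower, with a median of 0.82. Crip2, a LIM domain protein, had 1.69 and 0.776 CPM in WT and 58.8, 31.2 and 39.5 CPM in SCe organoids (5.12, SE 0.502, adjusted p 0.00267). H1f0, a linker histone of non-dividing cells, had 413 and 377 CPM against 1081, 777 and 744 CPM (1.13, SE 0.196, adjusted p 0.0103, highest 0.0854). The list's best known member, the cell cycle inhibitor Cdkn1a, had 116 and 78.0 CPM against 231, 140.1 and 130.1 CPM (0.78, SE 0.323, adjusted p 0.109). Cdkn2b, another such inhibitor, fell from 24.8 and 20.4 CPM to 6.26, 5.91 and 5.25 CPM (−1.96, SE 0.145, adjusted p 0.00161). The higher calls became 2 without WT line 1 and 1 without WT line 2, and 14 without SCe line 1.

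Neuronal genes, which epithelium normally keeps silent, were called higher more often than lower. Of 31 tested, 15 were called higher, against a background of 22.4%, and 1 lower, with a median of 1.80. Map2, a microtubule protein of dendrites, had 0.633 and 0.835 CPM in WT and 21.3, 10.4 and 12.2 CPM in SCe organoids (4.31, SE 0.443, adjusted p 0.00297). Kif5c, a kinesin of axons, had 0.0372 and 0.278 CPM against 3.50, 4.74 and 6.19 CPM (4.93, SE 0.814, adjusted p 0.00904). Syn2, a synaptic vesicle protein, had 0.614 and 0.616 CPM against 3.50, 3.42 and 2.91 CPM (2.41, SE 0.236, adjusted p 0.00267). Levels stayed low, but no SCe line reached down to WT. The 1 lower gene was Cplx2, a vesicle fusion protein that endocrine cells also use, with 9.97 and 14.6 CPM against 3.40, 4.76 and 3.75 CPM (−1.63, adjusted p 0.00703, highest 0.0558 without WT line 2). Higher calls numbered 6 without WT line 1, 6 without WT line 2, 10 without SCe line 2, 10 without SCe line 3 and 21 without SCe line 1. Of 9 germline genes that could be tested out of 27, 5 were called higher and 1 lower, among them Brdt, a bromodomain protein of the testis, with 0.298 and 0.358 CPM against 2.70, 1.84 and 2.00 CPM (2.72, SE 0.328, adjusted p 0.00417), and Tdrd5, of the germline piRNA pathway, with 0.372 and 0.199 CPM against 1.80, 2.10 and 2.31 CPM (2.84, SE 0.386, adjusted p 0.00552). Higher germline calls fell to 2 without WT line 1 and to 3 without WT line 2, SCe line 2 or SCe line 3.

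Fetal-like genes, which regenerating epithelium switches on, moved in both directions. Of 37 tested, 13 were called higher and 10 lower, with a median of 0.29. Ly6a, which encodes Sca1, had 15.4 and 11.6 CPM in WT and 77.0, 19.3 and 31.0 CPM in SCe organoids (1.65, SE 0.642, adjusted p 0.0957). Spp1, osteopontin, had 0 CPM in both WT lines and 0.200, 0 and 0.602 CPM in SCe organoids (adjusted p 0.158). Gja1, the gap junction protein connexin 43, had 2 counts in each WT line and 73, 254 and 331 counts in the SCe lines, a pooled ratio of 113 with a 95% counting interval of 43.9 to 416 (adjusted p 0.00230). Vim, the intermediate filament vimentin, had 1.82 and 2.92 CPM against 89.8, 66.0 and 111 CPM (5.23, SE 0.370, adjusted p 0.00157), and Fn1, fibronectin, 0.149 and 0.199 CPM against 37.6, 62.3 and 80.7 CPM (8.42, SE 0.538, adjusted p 0.00127).

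Other genes of the fetal-like list were lower. Krt19, a keratin, had 1783 and 1833 CPM in WT and 462, 515 and 503 CPM in SCe organoids (−1.87, SE 0.0864, adjusted p 0.00114). Anxa2, a membrane-binding annexin, had 735 and 675 CPM against 165, 262 and 220.1 CPM (−1.71, SE 0.202, adjusted p 0.00398). S100a6, a calcium-binding protein, had 520.2 and 529.6 CPM against 189.7, 143 and 119 CPM (−1.80, SE 0.204, adjusted p 0.00358). Msln, mesothelin, was low in SCe lines 2 and 3 above all, with 158 and 135 CPM against 31.8, 0.520 and 1.05 CPM (−3.76, SE 1.7, adjusted p 0.134). It was called lower without SCe line 1 (−7.56, adjusted p 9.65e-05). In the fetal-like list 8 were higher and 3 lower without WT line 1, 8 higher and 5 lower without WT line 2, and 15 higher and 16 lower without SCe line 1.

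Among targets of YAP, the growth regulator of the Hippo pathway, 9 of 30 were called higher and 3 lower, with a median of 0.47. That was 40% called, beside the 42.3% of all genes. Tgfb2, a TGF-β ligand, had 0.0930 and 0.119 CPM in WT and 1.83, 1.84 and 2.08 CPM in SCe organoids (4.15, SE 0.319, adjusted p 0.00170). Areg, the EGF family ligand amphiregulin, had 40.9 and 33.3 CPM against 96.7, 87.0 and 90.3 CPM (1.3, SE 0.116, adjusted p 0.00215). Ccn2, connective tissue growth factor, had 2.18 and 1.17 CPM against 24.7, 10.5 and 25.0 CPM (3.58, SE 0.553, adjusted p 0.00759, highest 0.0622 without WT line 2). Ccn1, its relative, had 6.34 and 5.03 CPM against 30.9, 3.67 and 6.23 CPM (1.25, adjusted p 0.353), high in line 1 only. Wwtr1, the YAP partner TAZ, rose from 13.5 and 11.3 CPM to 45.2, 41.1 and 46.0 CPM (1.83, SE 0.116, adjusted p 0.00127), and Yap1 itself fell from 121 and 119.8 CPM to 99.8, 85.9 and 83.4 CPM (−0.43, adjusted p 0.0213, highest 0.115). Higher calls numbered 4 without WT line 1, 3 without WT line 2 and 12 without SCe line 1, where 10 were lower and the median was −0.02.

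Vim and Fn1 are also made by stromal cells, so markers of such cells were read beside them. Of 17 smooth muscle and stroma markers 7 could be tested, and 5 of these were called higher and 0 lower, or 3 higher without either WT line. Their summed level was 3.50 and 4.24 CPM in WT and 97.9, 73.5 and 119 CPM in SCe organoids, of which Vim made up most. Vim is itself on this list, and of the other 6 genes tested 4 were called higher and 0 lower. Pdgfra, a receptor of mesenchymal cells, had 0.372 and 0.358 CPM against 4.3, 2.98 and 2.70 CPM (3.17, SE 0.336, adjusted p 0.00315). The defining collagen Col3a1 and the proteoglycan Lum were at 0 in all 5 lines, and Acta2, smooth muscle actin, had 0.0372 and 0.0398 CPM against 0.0333, 0 and 0.0516 CPM. Markers of immune cells summed to 34.2 and 35.6 CPM in WT and 10.8, 16.8 and 16.0 CPM in SCe organoids. Most of this was Kit, a receptor that secretory cells of the gut also express. Only 5 of the 20 immune markers could be tested, and 1 was called higher and 1 lower, with a median of 0.62.

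Genes of antigen presentation and of the interferon response were mostly higher. Of 32 tested, 17 were called higher and 2 lower, with a median of 1.28. Bst2, the antiviral protein tetherin, had 5.86 and 4.87 CPM in WT and 44.2, 38.9 and 35.4 CPM in SCe organoids (2.88, SE 0.155, adjusted p 0.00116). Ifi27, an interferon-induced mitochondrial protein, had 3.07 and 3.46 CPM against 34.0, 48.5 and 47.5 CPM (3.73, SE 0.216, adjusted p 0.00121). H2-K1, a class I MHC heavy chain, had 342 and 356 CPM against 554, 569.8 and 582 CPM (0.70, SE 0.0726, adjusted p 0.00299), and Tap1, which loads it with peptides, had 7.31 and 8.93 CPM against 18.6, 18.1 and 17.8 CPM (1.16, SE 0.128, adjusted p 0.00338). The class II gene H2-Ab1 was higher in lines 2 and 3 than in line 1, with 0.167 and 0.199 CPM in WT and 5.16, 27.6 and 35.7 CPM in SCe organoids (6.95, SE 1.15, adjusted p 0.00923, highest 0.0791). Oasl1, an interferon-induced gene, fell from 18.6 and 12.9 CPM to 5.20, 6.35 and 6.14 CPM (−1.41, SE 0.202, adjusted p 0.00627). Higher calls numbered 8 without WT line 1, 6 without WT line 2 and 27 without SCe line 1.

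Of 13 antimicrobial and alarm genes tested, 4 were called higher and 2 lower. Reg3b and Reg3g, bactericidal lectins of enterocytes, were raised far more in lines 2 and 3 than in line 1. Reg3b had 11.3 and 17.1 CPM in WT and 45.1, 803 and 1323 CPM in SCe organoids (5.67, SE 1.58, adjusted p 0.0398, highest 0.200), and Reg3g had 25.8 and 63.3 CPM against 108, 1009 and 1265 CPM (4.16, SE 1.23, adjusted p 0.0463, highest 0.217). Cxcl5, a chemokine that draws neutrophils, had 0.0744 and 0.139 CPM against 1.77, 3.88 and 3.63 CPM (4.84, SE 0.584, adjusted p 0.00420). The 4 higher calls became 1 without either WT line or SCe line 3 and 2 without SCe line 2.

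Genes of cholesterol synthesis were mostly lower. Of 23 tested, 0 were called higher and 15 lower, against a background of 19.9%, with a median of −0.80. Mvd, which makes the isoprene unit isopentenyl diphosphate, had 118 and 109 CPM in WT and 44.0, 38.0 and 31.0 CPM in SCe organoids (−1.59, SE 0.156, adjusted p 0.00267). Sc5d, a sterol desaturase, had 176 and 159 CPM against 88.4, 92.7 and 74.1 CPM (−0.98, SE 0.117, adjusted p 0.00411), and Ebp, a sterol isomerase, had 76.2 and 77.9 CPM against 36.2, 45.1 and 40.1 CPM (−0.93, SE 0.107, adjusted p 0.00375). Mvd and Sc5d were lowest in SCe line 3, and 2, 3 and 13 of the 23 genes were under 0.5 times the WT mean in SCe lines 1, 2 and 3. Over all 14925 genes tested these counts were 1721, 1372 and 1330. Hmgcs1, HMG-CoA synthase, had 786 and 725 CPM against 465, 412 and 306 CPM (−0.94, SE 0.189, adjusted p 0.0156, highest 0.0939). The 15 lower calls became 4 without WT line 1, 5 without WT line 2, 10 without SCe line 2 and 22 without SCe line 1.

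Sterol-responsive promoters carry sites of SREBP factors, one form of which is TCACNCCAC. These letters were found on either strand in 408 of 32851 promoters (1.24%), and in at least 1 promoter of 1.44% of genes. Of the cholesterol synthesis genes 15 were in the promoter table and 1 held them, 6.67%. That gene was Hmgcs1, where the match in capitals begins 137 bases before the start, at chr13:119690204-119690233 on the plus strand of GRCm38.p6.
Hmgcs1: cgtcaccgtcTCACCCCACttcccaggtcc

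Genes of the respiratory chain were counted separately by the genome that encodes them, nuclear or mitochondrial. Of 55 nuclear oxidative phosphorylation genes tested, 0 were called higher and 19 lower, 34.5% beside the 42.3% of all genes, with a median of −0.30. Ndufs7, a complex I subunit, had 69.1 and 68.2 CPM in WT and 39.7, 36.9 and 40.6 CPM in SCe organoids (−0.81, SE 0.0706, adjusted p 0.00205). Of the 13 mitochondrially encoded genes 4 were called higher and 0 lower, 30.8% beside the 42.3% of all genes, with a median of 0.98. Transcripts of the mitochondrial genome took 8.45% and 8.85% of counts in the WT lines, 10.9% in SCe line 1 and 19.3% and 18% in lines 2 and 3. mt-Nd2, a complex I subunit, had 3108 and 3461 CPM against 5378, 11546 and 11253 CPM (1.52, SE 0.377, adjusted p 0.0286, highest 0.159), and mt-Co1, of complex IV, had 29916 and 28522 CPM against 29177, 64002 and 55060 CPM (0.76, adjusted p 0.149). The highest values of both genes were in lines 2 and 3. Without SCe line 1, 12 of the 13 were called higher, and 0 were called without either WT line, SCe line 2 or SCe line 3. The nuclear list held 2 lower calls without WT line 1, 1 without WT line 2, 7 without SCe line 3 and 32 without SCe line 1, where 3 were higher.

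**Figure D4:**
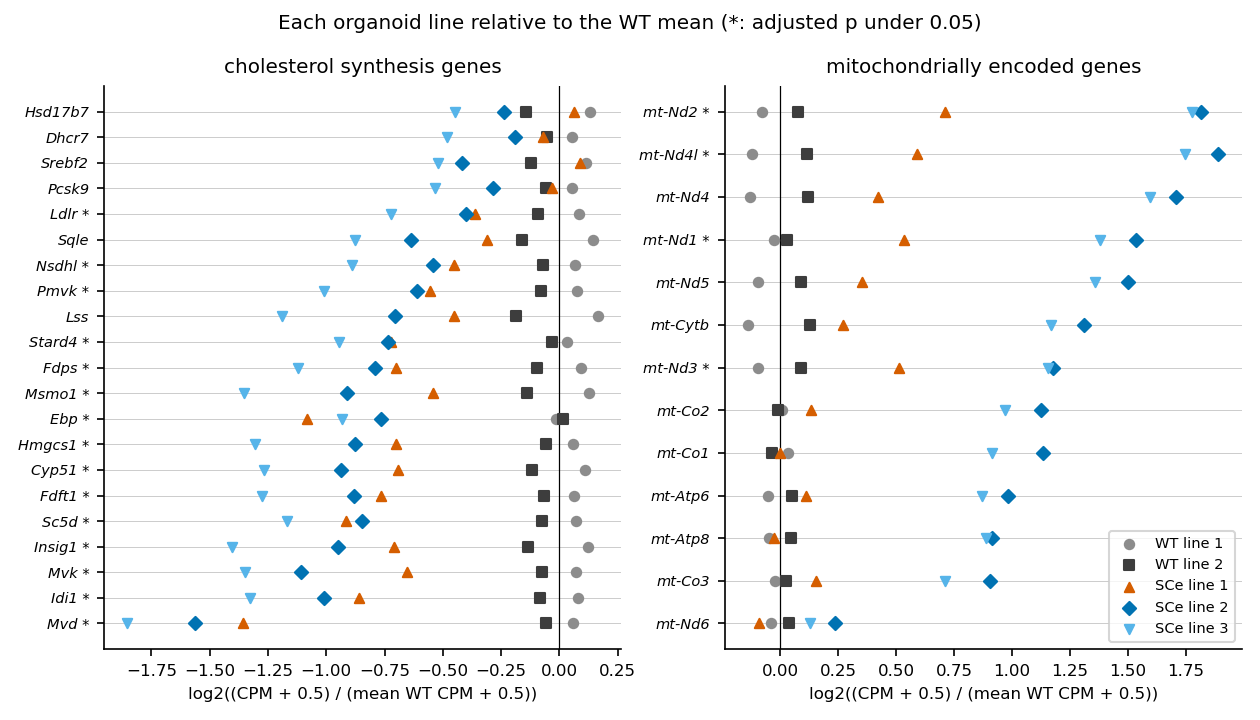
Level of genes of cholesterol synthesis and of the 13 mitochondrially encoded genes in each organoid line, as the log2 ratio of CPM to the WT mean. The cholesterol genes shown are mostly below 0 in every SCe line, and mitochondrially encoded genes are raised in SCe lines 2 and 3 more than in line 1.

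Of 30 fatty acid oxidation and ketogenesis genes 5 were called higher and 5 lower, 33.3% beside the 42.3% of all genes. Ppara, the nuclear receptor that drives these genes, fell from 40.6 and 36.1 CPM to 5.10, 9.30 and 9.63 CPM (−2.25, SE 0.288, adjusted p 0.00478), whereas its coactivator Ppargc1a rose from 6.94 and 5.53 CPM to 26.4, 20.8 and 23.0 CPM (1.91, SE 0.172, adjusted p 0.00221). Pdk4, which holds back pyruvate oxidation, had 0.149 and 0.179 CPM in WT and 1.17, 25.9 and 35.6 CPM in SCe organoids (6.98, SE 1.79, adjusted p 0.0311, highest 0.169). Pdk4 rose most in lines 2 and 3, and 16 genes of the list were higher without SCe line 1, against 2 without any other line. Of 25 core glycolysis genes 5 were called higher and 5 lower, 40% beside the 42.3% of all genes. Hk1, a hexokinase, rose from 45.7 and 30.7 CPM to 130.4, 166 and 121 CPM (1.86, SE 0.236, adjusted p 0.00467). Ldhb, a lactate dehydrogenase subunit, had 0.316 and 0.199 CPM against 6.86, 31.1 and 19.8 CPM (6.21, SE 0.887, adjusted p 0.00623, highest 0.0614). The glycolysis list had 2 higher and 0 lower without WT line 1, 1 and 2 without WT line 2, 11 and 6 without SCe line 1, 3 and 5 without SCe line 2, and 3 and 1 without SCe line 3.

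Of 25 targets of ATF4, the factor of the amino acid response, 5 were called higher and 8 lower. Ddit3, the stress factor CHOP, fell from 19.5 and 11 CPM to 3.17, 1.95 and 1.62 CPM (−2.78, SE 0.392, adjusted p 0.00603), and Chac1, which degrades glutathione, from 19.0 and 11.7 CPM to 1.20, 2.27 and 2.60 CPM (−2.91, SE 0.393, adjusted p 0.00548). Slc7a11, the cystine transporter, rose from 85.7 and 75.1 CPM to 133, 246 and 234 CPM (1.35, SE 0.295, adjusted p 0.0200, highest 0.132). The ATF4 target list had 11 higher and 11 lower calls without SCe line 1. It had 1 higher and 6 lower without SCe line 2 or SCe line 3. Fewer calls in both directions were left without either WT line. In the mTOR pathway and among the kinases of the ribosome stress response, 3 of 20 were called higher and 7 lower. The mTOR inhibitor Deptor fell from 201 and 209.6 CPM to 102, 123 and 114 CPM (−0.86, SE 0.0949, adjusted p 0.00337). Of these calls 0 higher and 3 lower were left without either WT line, 1 and 6 without SCe line 2, and 1 and 4 without SCe line 3.

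Of 41 cell cycle genes 5 were called higher and 3 lower, 19.5% beside the 42.3% of all genes, with a median of 0.06. Mki67, a protein of dividing cells, had 766 and 712 CPM in WT and 766, 938 and 948 CPM in SCe organoids (0.26, SE 0.126, adjusted p 0.157). Top2a, the topoisomerase of mitosis, had 578 and 524 CPM against 544, 605 and 649 CPM (0.12, adjusted p 0.400). Neither passed the test. Rrm2, a ribonucleotide reductase subunit, rose from 95.3 and 78.1 CPM to 168, 161 and 169 CPM (0.94, SE 0.104, adjusted p 0.00340). Of 50 cytosolic ribosomal protein genes 1 was called higher and 2 lower, 6% beside the 42.3% of all genes, with a median of 0.03. Of 30 Myc-driven ribosome biogenesis genes 10 were called higher and 3 lower, 43.3% beside the 42.3%, with a median of 0.17. Higher cell cycle calls numbered 3 without WT line 1, 1 without WT line 2 and 15 without SCe line 1, where 8 were lower. The biogenesis list had 1 higher call without WT line 1, 0 without WT line 2 and 5 without SCe line 3, and 9 ribosomal protein genes were higher and 6 lower without SCe line 1.

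Several of the largest rises, among genes whose groups did not overlap and with at least 5 CPM in the SCe mean, started from almost no reads in WT. Gli1, the transcription factor that reports Hedgehog signalling, had 0 counts in both WT lines and 417, 725 and 755 counts in the SCe lines, at least 221-fold higher against a floor of 3 counts a library (adjusted p 0.00114). After these values were seen, its pathway was read further: the ligand Ihh fell from 45.9 and 42.3 CPM to 11.7, 19.9 and 17.3 CPM (−1.43, SE 0.230, adjusted p 0.00844, highest 0.0629) and Ptch1, the receptor and usual target, from 44.2 and 43.0 CPM to 21.7, 15.7 and 14.7 CPM (−1.33, SE 0.185, adjusted p 0.00582). Zfp534, a KRAB zinc finger gene, had 0 counts in WT and 185, 585 and 408 in SCe organoids, at least 129-fold higher (adjusted p 0.00159). Hspb1, a small heat shock protein, had 1 count in each WT line and 194, 1818 and 1864 counts in the SCe lines, a pooled ratio of 1330 with a 95% counting interval of 368 to 10987 (adjusted p 0.00484, highest 0.0521). Ptpn13, a tyrosine phosphatase, rose from 0.0930 and 0.0398 CPM to 17.5, 27.1 and 29.6 CPM (8.48, SE 0.476, adjusted p 0.00119). Igfbp5, which binds insulin-like growth factors, rose from 0.372 and 0.159 CPM to 46.4, 77.5 and 33.3 CPM (7.60, SE 0.639, adjusted p 0.00193).

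**Figure D5:**
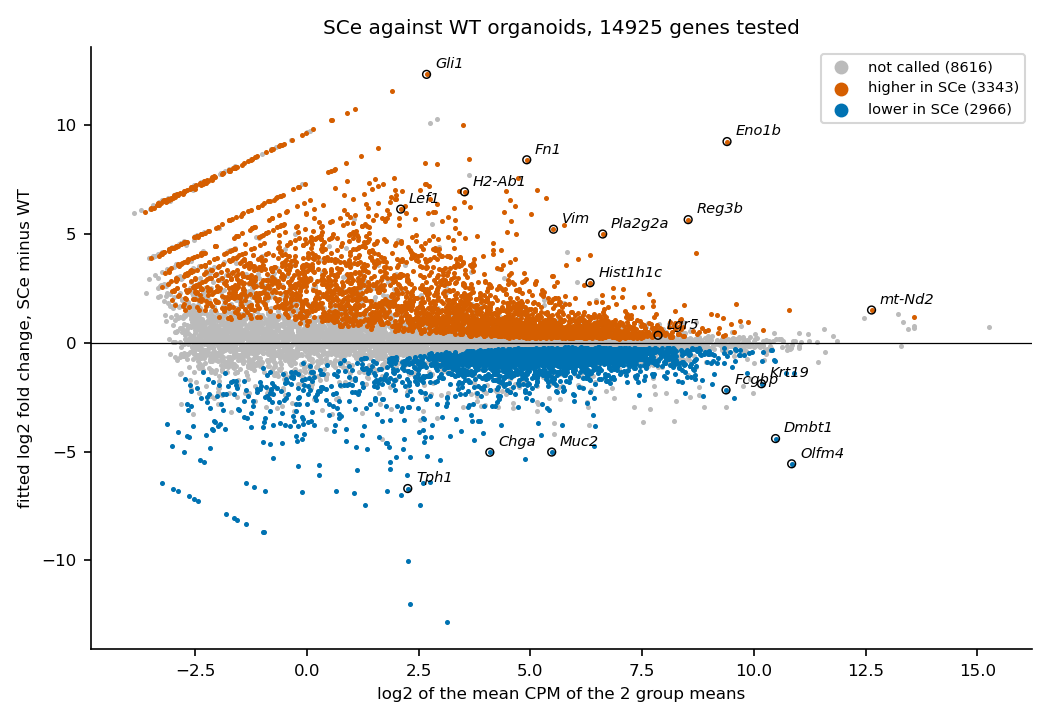
Log2 fold change of SCe over WT organoids against the log2 of the mean CPM of the groups for the 14925 genes tested, 1 point a gene, with some genes named. Called genes lie on both sides of 0, and many of the largest changes are in genes that are nearly absent from one of the groups.

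Among the largest falls, Ctrb1, a chymotrypsinogen, had 445 and 540 counts in WT and 0, 0 and 1 count in the SCe lines, a pooled ratio of 0.000697 with a 95% counting interval of 1.76e-05 to 0.00389 (adjusted p 0.00121). Of the 12 pancreatic acinar markers 6 were at 0 in all lines, among them Cpa1, Prss1 and Pnlip, and of the 4 tested Ctrb1 alone was called. The 12 summed to 61.6 and 66.1 CPM in WT and 20.4, 29.7 and 28.1 CPM in SCe organoids, and Clps, a colipase, made up most of the WT sum, with 44.4 and 44.8 CPM against 4.66, 15.5 and 18.2 CPM (−1.79, SE 0.544, adjusted p 0.0502). Tnfrsf8, the receptor CD30, fell from 9.32 and 7.62 CPM to 0.0333, 0.110 and 0.0344 CPM (−6.99, SE 0.486, adjusted p 0.00154), and Mcpt2, a mast cell protease, from 7.40 and 16.6 CPM to 0.100, 0.142 and 0.155 CPM (−6.43, SE 0.470, adjusted p 0.00159). Olfm4, Tph1 and Clca1 were also among the 12 largest falls.

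Some of the largest changes were in genes with near-identical copies, between which reads cannot be assigned with certainty. Eno1b went from 2.88 and 1.49 CPM to 1224, 1504 and 1310.1 CPM (9.26, SE 0.425, adjusted p 0.00114) while Eno1, the glycolytic enolase it copies, went from 1707 and 1267 CPM to 776, 935 and 825 CPM (−0.81, SE 0.162, adjusted p 0.0150, highest 0.0758). Their sum was 1709 and 1269 CPM in WT and 1999.9, 2438 and 2135 CPM in SCe organoids. The Myl12b gene ENSMUSG00000117098.1 had 16.3 and 18.9 CPM in WT and 0 in all SCe lines, at least 266-fold lower, whereas the other Myl12b gene, ENSMUSG00000034868.9, had 226 and 220.2 CPM against 266, 312 and 290.1 CPM (0.38, SE 0.0912, adjusted p 0.0264, highest 0.171). Srp54b, a signal recognition particle subunit, had 17.0 and 2.68 CPM in WT and 0 in all SCe lines, while Srp54a, Srp54b and Srp54c summed to 199 and 196 CPM against 220.4, 208 and 208 CPM.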

How the data were processed

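Poly(A) RNA of 7 organoid libraries was sequenced with a stranded kit. The authors quantified reads with Salmon 1.1.0 on protein-coding transcripts of GENCODE vM21 (mm10), and cutadapt 1.18 is among the tools their notes name. The deposited files give estimated counts, which need not be whole, for 66244 transcripts. These were summed for 22350 genes and over technical libraries, and rounded. TPM in the deposited files entered no fit, and effective lengths entered only an alternative. In R 4.3.3, edgeR 4.0.16 was used with filterByExpr, TMM scaling and the quasi-likelihood test. The script was tested on simulated data. Alternatives were DESeq2 1.42.0, limma 3.58.1 voom, other scalings, filters and thresholds, separate technical libraries and leaving out each line. The members and gene lists were chosen with earlier results of these data known, and the lists come from general knowledge. Named genes are markers the study measured, the 12 largest rises and falls with a mean of at least 5 CPM, and members of lists. From each list they include up to 4 called genes with the smallest adjusted p, so they favour its firmest calls. Some list members are not reported here. Zeros were bounded at a floor of 3 counts. Intervals and floors cover counting error only, at 95%.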

Additional observations from a re-analysis of the deposited data

How the results depend on the processing

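Calls depended most on the few lines. Leaving out 1 line gave 1154 to 4744 genes higher and 873 to 4786 lower, lowest without a WT line (928 lower without WT line 1) and highest without SCe line 1, and a threshold of 0.01 gave 1645 higher and 1335 lower. Upper quartile scaling moved the median of all genes from 0.02 to 0.13 on the log2 scale. Of the 114 called genes of the text, 83 were kept in every alternative, and 114 without SCe line 1. No paired design is stated. With the line number as a replicate block, 1753 genes were higher and 1401 lower, and 10 of the 114 calls were lost, while deviations of same-numbered lines correlated at 0.165 (line 1) and 0.144 (line 2). Signs turned for uncalled genes and for some list medians, including that of YAP targets, 0.47 over all lines, and the cause was not tested. With 1 line left out, Axin2 ranged from −0.43 to 0.33, Rnf43 from −0.14 to 0.84, Ccn1 from −0.21 to 1.7, Lyz1 from −0.78 to 0.15, Vil1 from −0.12 to 0.048, Mex3a from −0.54 to 0.23 and Hes1 from −0.26 to 0.030, and the medians of YAP targets from −0.015 to 0.66, of cell cycle genes from −0.0013 to 0.10 and of ribosomal protein genes from −0.0064 to 0.056. Under upper quartile scaling, Mex3a was 0.10, Hes1 0.022, Vil1 0.066 and the Notch median 0.0064. With limma voom Axin2 was −0.018 and Fabp1 −1.14, and with the replicate block Fabp1 was −2.35 and Mex3a 0.049. Mex3a was 0.027 with the 1 CPM filter, 0.0068 with the effective length offset, 0.018 with technical libraries separate and 0.0058 after thinning to the lowest total. Counts were lowest in SCe line 1, so its low genes are the least precise.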

Other observations

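Y-linked genes, which carry no information on the treatment, summed to 7.18 CPM in WT line 1 and 224 CPM in WT line 2, and to 7.36, 232 and 201 CPM in SCe lines 1, 2 and 3. WT line 1 and SCe line 1 therefore both held almost no Y-linked transcripts. Among the SCe lines, line 1 alone lacked them. Whether its difference from SCe lines 2 and 3 goes with sex or donor was not tested. Ddx3y, an RNA helicase of the Y chromosome, had 0.0744 and 71.3 CPM in WT and 0, 72.8 and 64.1 CPM in SCe organoids.

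Nnt, the nicotinamide nucleotide transhydrogenase of mitochondria, is annotated as a pair of overlapping genes. Together they had 57.4 and 54.4 CPM in WT and 212, 164 and 162 CPM in SCe organoids, and both were called higher (adjusted p 0.00829 and 0.0160), although each call was lost without either WT line (highest 0.0731 and 0.109). Retnlb, a goblet cell peptide, had 15.0 CPM in WT line 1 and 0 in each of the other lines. These genes were chosen after their values were seen, and a difference in genetic background between the lines was not tested.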
